A study of Mus musculus with 5 samples.

Results

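In mouse embryonic stem cells kept with L-proline, 7514 narrow islands of the histone mark H3K9me3 stood apart from every H3K9me3 island listed for untreated cells. They are autosomal islands of L-proline-induced cells (PiCs), less than 10 kb wide, with no H3K9me3 island of untreated embryonic stem cells (ESCs) within 10 kb. None of them overlaps an island of H3K36me3 in either condition. They were taken from 25867 H3K9me3 islands of PiCs, of which 24422 were autosomal, and they are called isolated PiC islands here. They were chosen by the positions and widths of islands in the deposited lists, so their absence from the ESC list is a description and carries no test.

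Chromatin immunoprecipitation with sequencing (ChIP-seq) was applied to the TBV2 line of strain 129/SvP, grown without feeder cells on gelatin in medium with leukemia inhibitory factor and lacking non-essential amino acids. PiCs received 500 µM L-proline for 5 days, and ESCs went through the same 5 days without it. H3K9me3 and H3K36me3 were each profiled in 1 library per condition, so no difference between PiCs and ESCs has a replicate check and no p-value is given. An input library of untreated cells was not analysed here. Intervals are exact 95% binomial intervals over islands, which cover counting error only.

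H3K9me3 is trimethylation of lysine 9 on histone H3. It is laid down by the SUV39H enzymes at pericentromeric repeats and by SETDB1 at endogenous retroviruses and other silent sequences, where KRAB zinc finger proteins and TRIM28 guide it in embryonic stem cells. Heterochromatin protein 1 binds the mark, and chromatin that carries it is usually compact and silent. H3K36me3, trimethylation of lysine 36, is laid down by SETD2 along the bodies of transcribed genes. The rule therefore gathers sites away from islands of the mark of transcribed genes. No gene annotation or genome sequence of the files' build, mm9, was used, so islands are given by position, without genes or bases.

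Each step of the rule removed a different number of islands. Of the 24422 autosomal PiC islands, 13440 overlapped an ESC island and 3050 more lay within 10 kb of one. The remaining 7932 make up 32.5% of the autosomal list, a share fixed by the rule's own contrast. The width limit removed 41 of them. H3K36me3 removed another 377, of which 351 overlapped an island of PiCs, 239 one of ESCs and 213 both. The 7514 islands left were 30.8% of the autosomal PiC islands (interval 30.2 to 31.4), covered 21.4 Mb of 91.4 Mb and held 658793 of 3294772 tags. They thus had 23.4% of the covered length and 19.995% of the tags.

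The same rule with the H3K9me3 lists exchanged found far fewer islands. It kept 2073 of 17697 autosomal ESC islands, or 11.7% (interval 11.2 to 12.2), after 3045 of them (17.2%) had no PiC island within 10 kb. Isolated islands were therefore 3.62 times as many in PiCs as in ESCs (3.45 to 3.81), where all autosomal islands were 1.38 times as many (1.35 to 1.41). H3K36me3 accounted for 955 of the ESC islands lost, against 377 in PiCs, and with that overlap allowed the ratio was 2.61. The ratio depended on the length of the PiC list. For lists of equal size, only the PiC list was cut, to its islands with the most tags, and the ESC list stayed whole. This left 4088 isolated islands in PiCs and 3447 in ESCs, a ratio of 1.19 (1.13 to 1.24). With each H3K9me3 list cut to its 50% with the most tags, the ratio was 3.76 (3.52 to 4.02). The number of isolated PiC islands was also 3926 with a distance of 50 kb, and 4178 when each H3K9me3 list was cut to the 50% with the most tags.

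Isolated PiC islands were narrow and held few tags within their own list. Their median width was 2.6 kb (quartiles 1.6 and 3.6 kb), against 3.4 kb (2.2 and 4.8 kb) for the 14640 other PiC islands under 10 kb without H3K36me3 overlap, called other narrow PiC islands below. They held a median of 72 tags, with a range from 23 to 1323, while the other narrow islands had a median of 110. The median tag density was 30.5 tags per kb (quartiles 25.5 and 37.5) in isolated PiC islands and 34.4 (28.5 and 42.3) in the other narrow PiC islands. Tags are counts that were not scaled to library size, so strength is compared within a list, and any values of both lists side by side are unscaled unless a scaling is named. The quartile ranges of the classes overlap in width and in density.

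Tags per kb varied with width, and were highest in islands under 1 kb, so the classes were also compared at equal width. Islands of 1 to 2 kb had a median of 35.6 tags per kb when isolated and 38.7 otherwise. At 2 to 3 kb, the commonest width with 2198 isolated PiC islands, the medians were 28.5 and 33.5 tags per kb. At 3 to 4 kb they were 26.7 and 32.3. The isolated islands were lower in all 6 width classes, with ratios of medians from 0.825 at 3 to 4 kb to 0.957 under 1 kb. The share of islands that were isolated also fell with width, at 52.5% (interval 49.1 to 55.9) under 1 kb and 16.7% (15.3 to 18.2) at 6 to 10 kb.

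**Figure D1:**
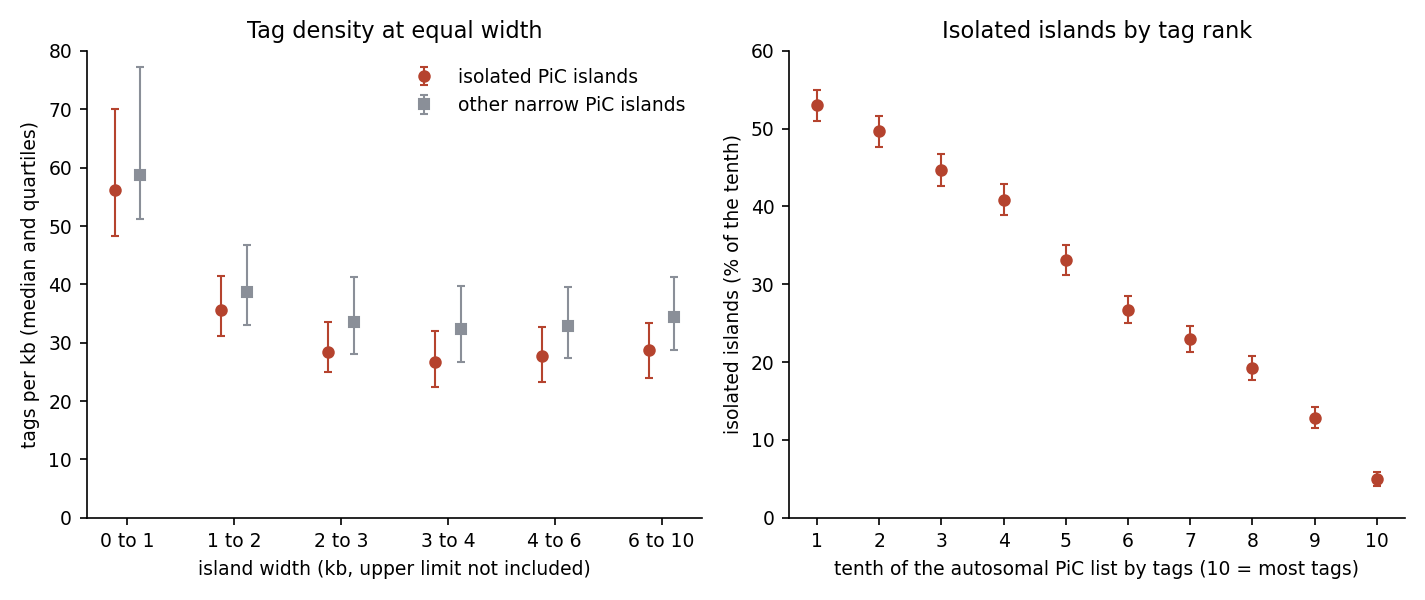
Left, median tags per kb with quartiles by island width for isolated and other narrow PiC islands. Right, isolated islands as a percentage of each of 10 classes of the autosomal PiC list ranked by tags, with exact 95% binomial intervals: the share was 53.0% in class 1 and 4.97% in class 10. The ranked list includes islands that the rule bars by width or H3K36me3.

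The isolated share fell along the whole ranking by tags. The autosomal PiC list was cut into 10 classes of about equal size by tags. In the class with the fewest tags (23 to 48), 1292 of 2439 islands were isolated, or 53.0% (interval 51.0 to 55.0). The fifth class (83 to 97 tags) had 33.1%, and the class with the most tags (250 or more) had 122 of 2453, or 4.97% (4.15 to 5.91). The median isolated PiC island stood at the 31.8 percentile of the list by tags. In the ESC list, isolated islands made up 20.4% of the class with the fewest tags and 0.284% of the class with the most, where they numbered 5. In both lists isolated islands were thus least common among the islands with the most tags, though 122 isolated PiC islands reached the top class of their list. The ranked lists include islands of 10 kb or more and islands overlapping H3K36me3, which cannot be isolated by definition. The rule itself therefore lowers the share in classes that hold them. Shares over only the 22154 PiC islands open to the rule by width and H3K36me3 were not computed by class.

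The libraries also differed in how many tags they gave at sites listed in both. At 11799 sites where 1 PiC island under 10 kb overlapped 1 such ESC island and no other, the median density was 35.8 tags per kb in PiCs and 27.3 in ESCs. The median of the ratios was 1.34 (quartiles 1.05 and 1.66), and 78.3% were above 1. Dividing the isolated PiC islands by that median ratio left 7283 of 7514 (96.9%) at or above the 5th percentile of ESC islands of like width, a level that 95% of ESC islands reach by definition. Of the other narrow PiC islands 98.9% reached it. At or above the ESC median were 2607, or 34.7% (interval 33.6 to 35.8), against 59.5% of the other narrow PiC islands. This scaling rests on the shared sites alone, and the part that tag yield plays in the number of isolated islands was not tested.

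Distance from ESC islands ran far beyond the limit of the rule. Isolated PiC islands lay a median of 54.0 kb from the nearest ESC H3K9me3 island (quartiles 25.2 and 125.6 kb). Beyond 50 kb were 3926 of them, beyond 200 kb 1030 and beyond 1000 kb 8. Tag density differed little along this distance, with medians of 30.4 tags per kb at up to 50 kb, 30.6 at 50 to 200 kb and 30.4 beyond 200 kb. Median width was 2.6, 2.4 and 2.2 kb in the same classes, and median tags were 75, 70 and 66. Tags per kb vary with width, and these distance classes were not compared at equal width. At the limit itself, the 164 isolated islands with an ESC island at over 10 and up to 11 kb had a median of 29.5 tags per kb, and the 182 islands just outside, at 9.2 to 10 kb, had 30.8. At the width limit, 32 isolated islands of 9.0 to 9.8 kb had a median of 27.7 tags per kb, and 18 islands of 10 to 10.8 kb had 26.2.

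Within the PiC list isolated islands stood further from their neighbours than other narrow islands did. The next PiC H3K9me3 island of any kind lay a median of 28.2 kb away (quartiles 11.8 and 66.0 kb), against 6.6 kb for the other narrow PiC islands. Another PiC island was within 10 kb of 1581 isolated islands (21.0%), and beyond 50 kb lay the neighbours of 2449. Most isolated islands thus had no other PiC island within 10 kb. The rule bears on this, because a PiC island that overlaps an ESC island can seldom lie so close to an isolated one. The difference from other narrow islands is therefore not independent of the rule. Of the 1581 isolated islands with a PiC island within 10 kb, 1281 (81.0%) had another isolated one as that neighbour. Of all autosomal PiC islands 30.8% were isolated, but the rule itself favours isolated neighbours at so short a distance. For isolated ESC islands the distance to the next island of their list was a median of 34.2 kb.

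Isolated islands also neighboured each other, which the rule itself favours at short distances. Another isolated PiC island was within 50 kb of 3185 of them, or 42.4% (interval 41.3 to 43.5), and within 10 kb of 1298, or 17.3% (16.4 to 18.1). Of the isolated ESC islands, 32.9% (30.9 to 35.0) had another within 50 kb and 16.2% (14.6 to 17.9) within 10 kb. The classes differ in number, at 3.12 isolated PiC and 0.860 isolated ESC islands per Mb of autosome, and the shares were not adjusted for that. With lists of equal size, which left 4088 isolated PiC islands, the PiC share within 50 kb was 31.5%. The ESC share was not computed for those lists. Joined over gaps of up to 50 kb, the isolated PiC islands formed 964 pairs, 335 runs of 3 to 4 and 33 runs of 5 to 9. Another 4329 islands stayed alone. The longest runs held 7 islands. A run on chromosome 17 at 20098401 to 20158800 packed 7 isolated islands into 60.4 kb with no ESC H3K9me3 island and no H3K36me3 island between them, at 20.4 to 35.0 tags per kb. A second run on chromosome 17, at 93370601 to 93531600 (161 kb), again took in no ESC H3K9me3 island and no H3K36me3 island, and ran from 24.0 to 155 tags per kb. Of the other runs of 7, one from 6025401 to 6164400 of chromosome 4 took in 1 ESC island and 1 H3K36me3 island. The run from 6048201 to 6230800 of chromosome 5 took in 3 ESC islands and no H3K36me3 island. A run of 6 on chromosome 1 at 26596601 to 26686400 had the densest islands of these 5 runs by the median, at 41.4 tags per kb.

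**Figure D2:**
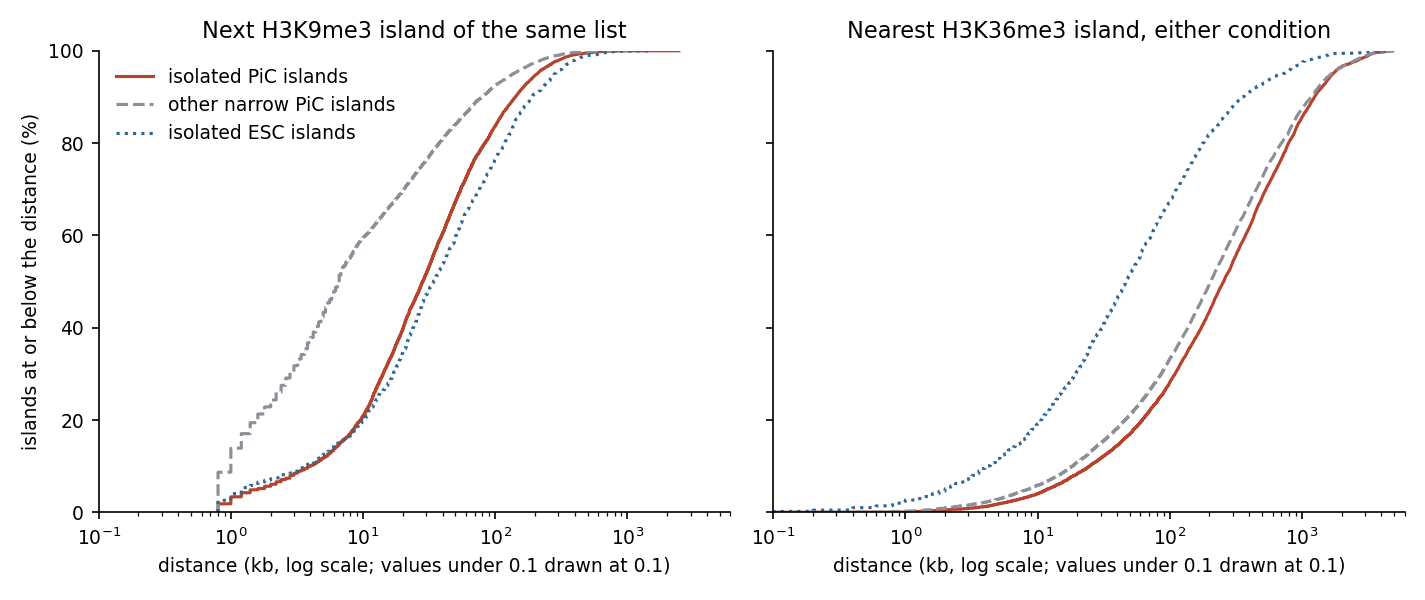
Cumulative share of islands by distance to the next H3K9me3 island of the same list (left) and to the nearest H3K36me3 island of either condition (right), on a log axis in kb. Isolated PiC islands (median 28.2 kb) run to the right of other narrow PiC islands (6.6 kb) on the left, and far to the right of isolated ESC islands on the right (255.8 kb against 46.6 kb).

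Isolated PiC islands were spread over most of the autosomes in windows of 1 Mb. Of 2423 windows 2139 held at least 1, and the mean was 3.10 per window. Windows with 5 or more numbered 583 and held 52.2% of the islands. The 5 windows with the most were adjoining windows on chromosome 17, from 19000001 to 20000000 with 23 and from 20000001 to 21000000 with 20, then chromosome 3 from 3000001 to 4000000 with 17, chromosome 3 from 20000001 to 21000000 with 16, and chromosome 5 from 6000001 to 7000000 with 15. Isolated ESC islands numbered 1 in the first of these and 0 in the other windows. None of these windows was free of ESC H3K9me3 islands: they held 43, 38, 56, 28 and 42 PiC islands in all, and 15, 10, 34, 10 and 19 ESC islands. H3K36me3 covered at most 2.04% of any of them in PiCs and 1.84% in ESCs. The isolated islands there were of ordinary strength, with medians of 31.1, 28.8, 31.8, 29.8 and 32.0 tags per kb in the same order. Windows without any ESC H3K9me3 island numbered 106 and held 194 isolated PiC islands, or 2.58%.

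H3K36me3 islands lay far from most isolated PiC islands. The rule removes overlap but sets no distance, and the nearest H3K36me3 island of either condition was a median of 255.8 kb away (quartiles 84.8 and 657.6 kb). For other narrow PiC islands, restricted in the same way, it was 203.8 kb (64.8 and 549.7 kb), and for isolated ESC islands 46.6 kb (14.4 and 141.8 kb). Only 307 isolated PiC islands (4.09%) had an H3K36me3 island within 10 kb, and 5396 (71.8%) had none within 100 kb. Within 10 kb, an H3K36me3 island of PiCs was found for 259, one of ESCs for 244, and both for 196. Islands near H3K36me3 were narrower and denser, with medians of 2.0 kb and 34.3 tags per kb within 10 kb, against 2.6 kb and 30 tags per kb beyond 100 kb. Tags per kb vary with width, and these classes were not compared at equal width.

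By region the contrast with isolated ESC islands was wide. Windows of 1 Mb were classed by the share covered by H3K36me3 islands of either condition. The 630 windows with none held 2390 isolated PiC islands, or 31.8% (interval 30.8 to 32.9), and 163 isolated ESC islands, or 7.86% (6.74 to 9.11). Other narrow PiC islands had 27.7% (26.9 to 28.4) there. In the 506 windows with at least 20% cover were 893 isolated PiC islands, 11.9% (11.2 to 12.6), and 1007 isolated ESC islands, 48.6% (46.4 to 50.8). Isolated PiC islands averaged 3.79 per window without H3K36me3 and 1.76 per window with at least 20%. For isolated ESC islands the means were 0.259 and 1.99.

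The ratio of isolated islands, PiC over ESC, thus differed by class of window. It was 14.7 (interval 12.5 to 17.3) in windows without H3K36me3, 8.76 with up to 5% cover, 3.47 with 5 to 20%, and 0.887 (0.809 to 0.971) with at least 20%. For all autosomal H3K9me3 islands the corresponding ratios ran from 1.78 to 0.840. With lists of equal size, an alternative added after the data had been seen, the isolated ratio was 2.91 in windows without H3K36me3 and 0.336 in those with at least 20%. Without chromosome 15, windows with at least 20% gave 0.993 (0.903 to 1.09). Where H3K36me3 covers more of a window, the rule leaves less of it open to isolated islands. The islands lost to this differed between the lists. Windows with at least 20% held 893 isolated PiC and 1007 isolated ESC islands, and 1047 and 1748 with overlap allowed. With H3K36me3 overlap allowed, the ratio was 14.7 in windows without H3K36me3 and 0.599 in those with at least 20%.

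**Figure D3:**
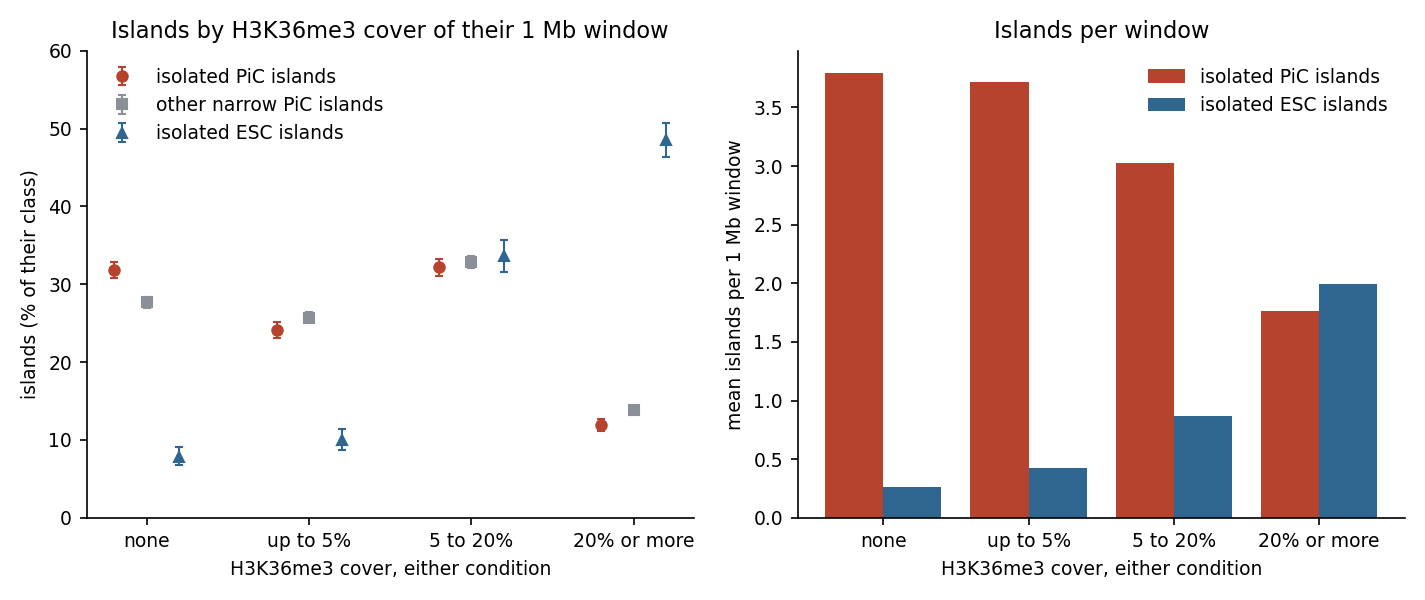
Left, percentage of isolated PiC, other narrow PiC and isolated ESC islands in 1 Mb windows classed by H3K36me3 cover of either condition, with exact 95% binomial intervals. Right, mean isolated islands per window: PiC islands are most frequent without H3K36me3 (3.79) and ESC islands where cover is at least 20% (1.99).

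Position along the chromosome differed in the same way. Mouse autosomes have their centromere at the low end of the coordinates. Each autosome was cut into 10 equal segments between its first and last island of any list. The first segment, next to the centromere, held 13.9% of isolated PiC islands (interval 13.2 to 14.8), 18.3% of other narrow PiC islands and 6.27% of isolated ESC islands (5.27 to 7.40). The last segment, next to the far end, held 9.54% of isolated PiC islands (8.89 to 10.2), 8.63% of other narrow PiC islands and 20.4% of isolated ESC islands (18.6 to 22.2). Isolated islands made up 28.1% of narrow PiC islands in the first segment and between 32.6% and 38.9% in the other 9.

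**Figure D4:**
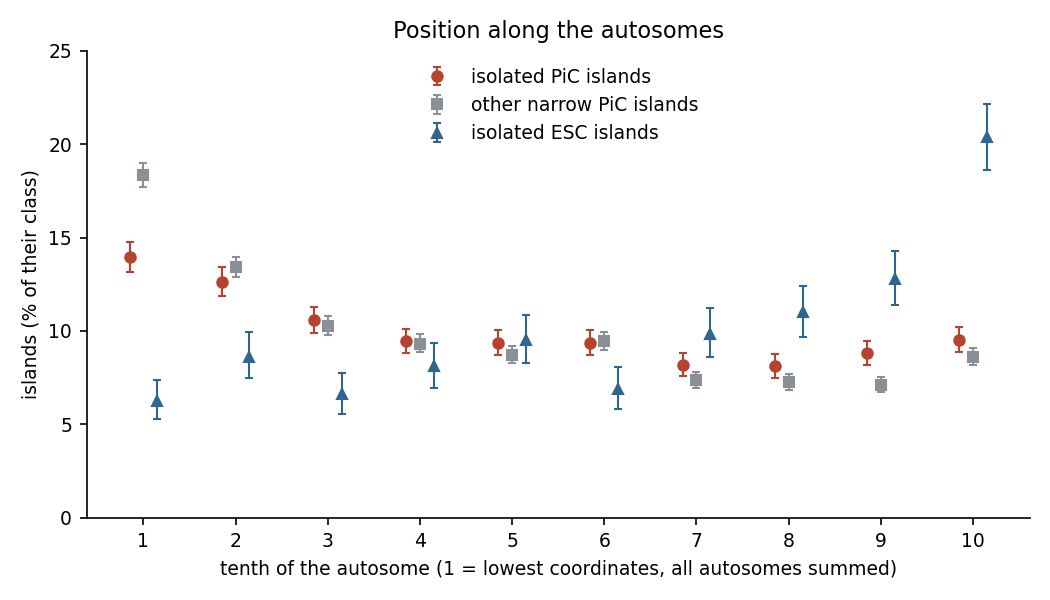
Percentage of each class of islands in 10 equal segments of the autosomes, from the low to the high end of the coordinates, with exact 95% binomial intervals. Isolated PiC islands run from 13.9% in segment 1 to 9.54% in segment 10, and isolated ESC islands from 6.27% to 20.4%.

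Every autosome had more isolated islands in PiCs than in ESCs, with a median ratio of 4.14. The share of PiC islands that were isolated lay between 24.9% on chromosome 15 (interval 22.2 to 27.6) and 36.5% on chromosome 19 (32.1 to 41.2), around a median of 31.3%. Chromosome 15 had 253 isolated PiC islands and 210 isolated ESC islands, a ratio of 1.20 whose interval, 0.999 to 1.45, includes 1. All H3K9me3 islands of chromosome 15 numbered 1018 in PiCs and 1107 in ESCs. Unlike its isolated islands, those of its full lists were thus fewer in PiCs. Chromosome 11 followed with 291 and 164 isolated islands, a ratio of 1.77 (1.46 to 2.16), and had 947 and 816 islands in all. The highest ratio was 8.68 (6.70 to 11.4) on chromosome 3, from 564 isolated islands in PiCs and 65 in ESCs. There, all islands numbered 1837 and 1157. Lists of equal size were not run by chromosome.

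Chromosome 1 stood out by density of islands. It had 874 isolated PiC islands, or 4.50 per Mb, against a median of 3.06 over the autosomes and 3.77 on chromosome 17, the next highest. All H3K9me3 islands were dense there in both conditions, at 14.9 per Mb in PiCs and 10.5 in ESCs, where the autosomal medians were 9.82 and 6.87. The share that was isolated, 30.1% (interval 28.4 to 31.8), was close to the median of the autosomes. Median tag density of isolated islands ran from 28.4 tags per kb on chromosome 16 to 33.1 on chromosome 1, and their median width from 2.4 to 2.8 kb.

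**Figure D5:**
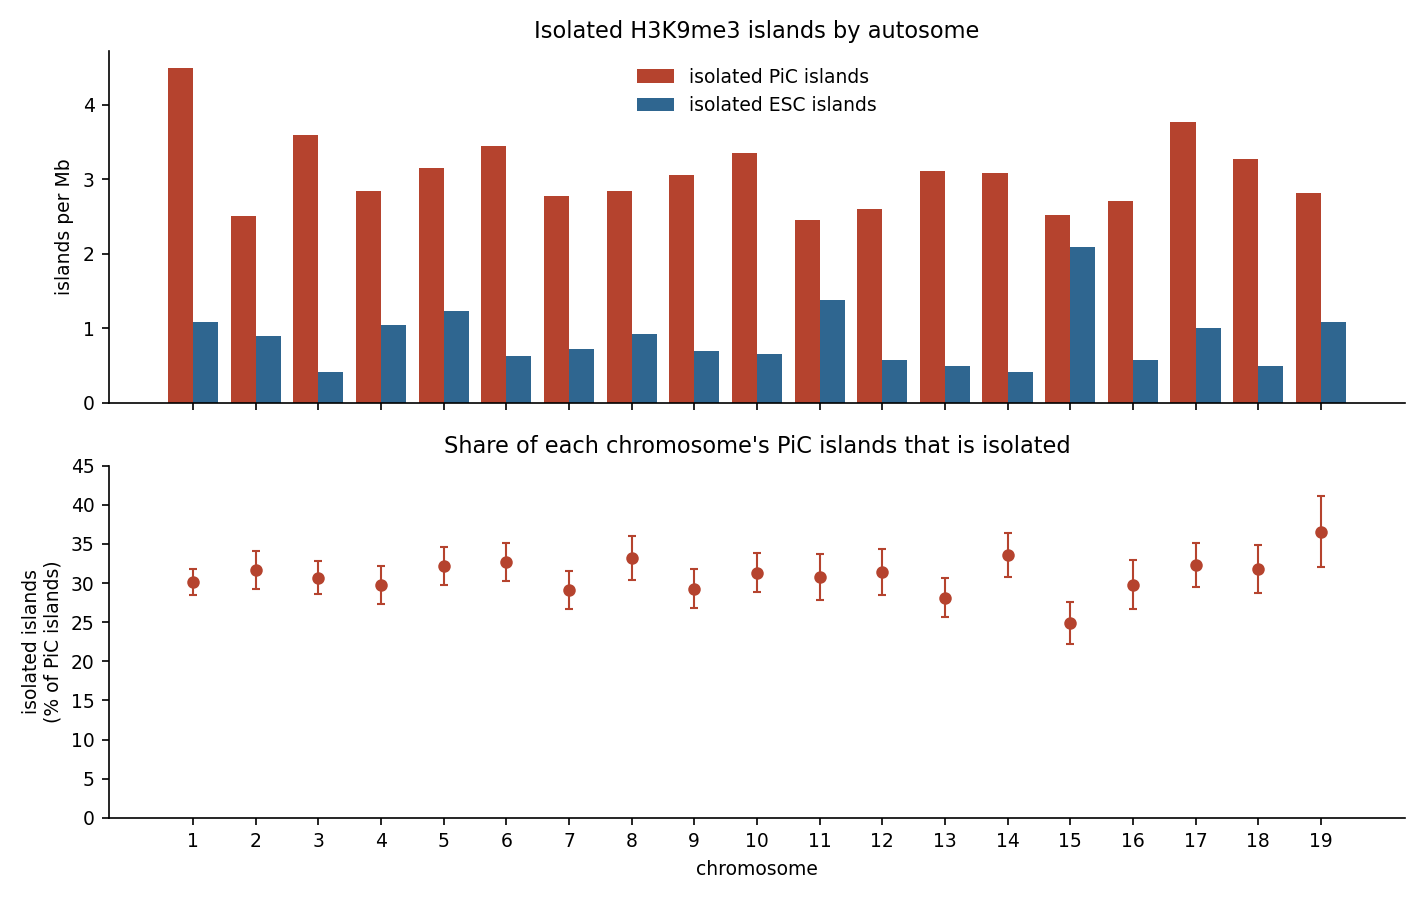
Top, isolated PiC and isolated ESC H3K9me3 islands per Mb on each autosome. Bottom, isolated islands as a percentage of the PiC islands of each autosome, with exact 95% binomial intervals; chromosome 15 is lowest (24.9%) and chromosome 19 highest (36.5%).

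The widest isolated islands resembled the rest in strength. The width of 9.8 kb, the largest the rule and the 200 bp grid of the lists allow, was reached by 7 islands. They include islands on chromosome 1 at 117381801 to 117391600 with 273 tags, on chromosome 10 at 73986201 to 73996000 with 327, and on chromosome 3 at 21153801 to 21163600 with 251. Those on chromosome 18 at 6606201 to 6616000 and chromosome 19 at 13246801 to 13256600 had 308 and 253 tags. These 5 islands had 25.6 to 33.4 tags per kb, near the median of 30.5, and H3K36me3 was at least 119 kb away. The island on chromosome 1 was 90.8 kb from the nearest ESC H3K9me3 island, and that on chromosome 3 only 15.6 kb.

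A small set of isolated islands was far stronger, as it was among other narrow PiC islands. At least 50 tags per kb were found in 7.71% of isolated PiC islands (interval 7.11 to 8.33) and in 12.5% of other narrow PiC islands (12.0 to 13.1). At least 100 tags per kb were found in 68, or 0.905% (0.703 to 1.15), and in 91 other narrow PiC islands, or 0.622% (0.501 to 0.763). At least 200 tags per kb were found in 14 isolated PiC islands, or 0.186% (0.102 to 0.312), and in 21 other narrow PiC islands, or 0.143% (0.0888 to 0.219), so the intervals overlap. The 14 were mostly very narrow, with a median width of 0.7 kb. The highest density, 1100 tags per kb, belonged to an island of 0.6 kb on chromosome 4 at 70039001 to 70039600, which held 660 tags and lay 7.2 kb from H3K36me3. The next were on chromosome 9 at 24346201 to 24346800 (596 tags, 993 per kb), chromosome 6 at 103598401 to 103599600 (958 tags, 798 per kb), chromosome 3 at 56379201 to 56380000 (530 tags, 662 per kb) and chromosome 5 at 115372201 to 115372800 (321 tags, 535 per kb). The island on chromosome 6 also stood 430.2 kb from the nearest ESC island and 220.8 kb from the next PiC island. The input was not analysed, so sites that gather tags without the antibody cannot be told apart from marked ones here.

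By total tags, the first isolated islands were both on chromosome 12. The one at 75904201 to 75908400 held 1323 tags over 4.2 kb (315 per kb) and was 0.8 kb from another PiC island, the smallest gap in the list. The one at 68160001 to 68162600 held 1191 tags (458 per kb) and had no other H3K9me3 island of either condition within 128 kb. The chromosome 6 island came next. Wider islands of moderate density followed it, from 12997201 to 13005600 of chromosome 13 (735 tags, 87.5 per kb) and from 13781001 to 13790200 of chromosome 1 (715 tags, 77.7 per kb). The chromosome 13 island was close to the rule's limit, 10.6 kb from an ESC island and 1.0 kb from the next PiC island.

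The most remote isolated islands had no other H3K9me3 island of either condition over long distances. The first, on chromosome 14 at 6055201 to 6061000, was 5.8 kb wide with 198 tags (34.1 per kb) and had its nearest ESC island 1672 kb and its nearest PiC island 2451 kb away. On chromosome 2 an island at 136878201 to 136880400 (93 tags, 42.3 per kb) had a free distance of 770.8 kb, with an H3K36me3 island 11 kb away. Those on chromosome 8 at 32885401 to 32888400, chromosome 3 at 149829601 to 149830200 and chromosome 11 at 44316201 to 44317600 had free distances of 693, 691 and 690 kb. They held 79, 33 and 57 tags. By rank of tags in the list, the remote islands thus lay between its 0.823 percentile on chromosome 3 and its 83.2 percentile on chromosome 14.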

How the data were processed

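Per the submitters' processing notes, SICER called the islands and the build was mm9. SICER joins enriched windows into broad regions. Neither its thresholds nor the aligner, duplicate handling or role of the input is given in the sources used here. The deposited lists hold chromosome, start, end and a whole number, read as an unscaled count of tags per island. Tags in islands summed to 3514489 in the PiC and 1511058 in the ESC H3K9me3 list, so library depth is unknown. All starts and ends lay on a 200 bp grid. Ends were taken as the last base, and positions are 1-based.

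Distances are bases between islands, with overlap from 1 bp. Groups came from sample titles. Medians, shares and windows (an island counted at its midpoint) were computed with scipy 1.17.1, pandas 2.3.3 and numpy 2.4.6 under Python 3.11.15, and the rule was tested on simulated lists. Gene and sequence tables of another build, GRCm38.p6, were not used. Regions named are the 5 members that rank first by width, tags, tags per kb and distance from other H3K9me3 islands (ties by chromosome name), and the 5 fullest windows of 1 Mb. Runs and chromosomes were named after their values were seen. The members, the rule and these lists were chosen with earlier results of these data known. Alternatives changed the distance, the width limit, the H3K36me3 condition, list length, joining of islands and chromosomes.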

Additional observations from a re-analysis of the deposited data

Results flagged for a closer look

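Sex chromosomes are outside the rule, and islands there met its other conditions in data not used above. Chromosome X had 575 such islands in PiCs, 42.2% of its 1361 (interval 39.6 to 44.9), and 58 in ESCs, 7.82% of its 742 (5.99 to 9.99). Their median was 26.1 tags per kb in PiCs. Chromosome Y had 38 of 84 in PiCs and 3 of 25 in ESCs. The difference between these chromosomes and the autosomes was not tested.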

How the results depend on the processing

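No paired analysis was possible because there was 1 library per group, which also left no replicate to omit. Of 10 alternatives, 7 left the number of isolated PiC islands within 1.5 times 7514. It was 3926 with a distance of 50 kb, 4178 with the 50% of islands with the most tags and 4088 with lists of equal size. The ratio PiC over ESC was 3.88 with a distance of 2 kb, 3.25 with 50 kb, 1.19 with equal lists, 4.30 with no H3K36me3 within 10 kb, 2.61 with overlap allowed and 3.90 without chromosome 15. The ratio of median tags per kb, isolated over other narrow PiC islands, was 0.887, and 0.864 at 2 kb, 0.912 at 50 kb, 0.825 with the top 50%, 0.867 with equal lists and 0.898 with islands joined over 2 kb. The share with another isolated island within 50 kb was 50.3% at 2 kb, 34.7% at 50 kb, 37.7% with widths under 5 kb, 35.1% with the top 50%, 31.5% with equal lists and 38.6% with joined islands. The share in windows without H3K36me3 was 33.6% at 50 kb, 30.03% under 5 kb, 36.8% with the top 50%, 35.3% with equal lists, 33.2% with no H3K36me3 within 10 kb and 30.3% with overlap allowed. The chromosome 15 share, 3.37%, was 2.62% at 50 kb, 2.78% with the top 50% and 2.96% with equal lists. Among windows classed by H3K36me3, added after the data had been seen, the ratio was 2.91 without H3K36me3 with equal lists. With at least 20% cover it was 0.336 with equal lists, 0.599 with overlap allowed and 0.993 without chromosome 15. The causes were not tested, beyond the fewer islands that shorter lists and longer distances leave.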
